A study of Mus musculus with 4 samples.

Results

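The genes described here are DNA damage signalling and repair genes of mouse cardiac endothelium. They were chosen by name from a list of 37, which covers checkpoint kinases, sensors of broken DNA and the enzymes of the main repair routes. Of these, 36 were measured among 45882 gene IDs, and Fanca was not analysed here. The mean over the 4 libraries reached 1 FPKM for 30 of the 36, against 12325 gene IDs in all. The unit, FPKM, counts sequenced fragments relative to the length of the transcript and the depth of the library, so levels can be compared between genes.

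RNA was sequenced from endothelial cells taken from the hearts of male mice on magnetic beads against the endothelial adhesion molecule CD31 (encoded by Pecam1). WT saline and WT Dox were wild-type mice, and Smad3 KO saline and Smad3 KO Dox came from a line with the Smad3tm1Par allele, in which Smad3, a transcription factor of the TGF-β pathway, is lost in every cell and not in endothelium alone. Both Dox groups received 4 weekly tail vein injections of doxorubicin, an anthracycline cancer drug, at 5 mg/kg from 7 wk of age, while both saline groups received saline, and cells were collected 9 wk after the last injection, at 20 wk of age. Each group had 1 library, so there is no replicate check, and neither an error between animals nor a test can be given.

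Doxorubicin traps topoisomerase II on DNA and leaves double-strand breaks, and its redox cycling oxidises bases. Breaks activate the kinases ATM and ATR, mark the surrounding chromatin and are rejoined by end joining or, where a sister copy exists, by homologous recombination. Damaged bases are removed by base excision repair, bulky lesions by nucleotide excision repair and copying errors by mismatch repair. Many recombination and crosslink repair genes are expressed mainly in dividing cells, and endothelium of the adult heart divides rarely.

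The libraries held about 21600000 to 28000000 mapped fragments, an estimate from the spacing of the low values, and Smad3 KO Dox was the shallowest. Smad3 itself had 2.95 FPKM with saline and 2.09 with Dox in wild type, and 1.02 with saline and 0.848 with Dox in the knockout, so both knockout libraries were below both wild-type libraries. The genotype tag contradicted the title of 2 libraries (WT Dox and Smad3 KO saline), and the titles were followed. Pecam1 had 401 to 511 FPKM, but Cdh5, an endothelial cadherin, fell by 1.02 in the doxorubicin-treated knockout against its saline control and by 1.15 against WT Dox. The median of 8 endothelial markers was -0.35 and -0.24 in these comparisons. Markers of other cells were present too. The summed level of 7 erythroid genes was 4420, 4380, 10300 and 28500 FPKM in a fixed order (wild type with saline, wild type with Dox, knockout with saline, knockout with Dox), and that of 10 macrophage genes was 521, 531, 311 and 187 FPKM in the same order. That of 8 cardiomyocyte genes was 469, 605, 769 and 947 FPKM. The sum of 8 pericyte and smooth muscle genes was 889, 1150, 1350 and 1260 FPKM, and that of 8 fibroblast genes 225, 220, 242 and 286 FPKM. No marker on the macrophage, erythroid or cardiomyocyte lists stood at the lowest listed value in every library. In such bulk samples fewer cells of a type and less RNA per cell cannot be told apart.

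Most repair genes, like most genes at large, differed little between the libraries, and the largest changes were in single genes of different routes. Differences were taken between values of log2(FPKM + 0.5), which shrinks the change of genes with low values, and rise and fall here mean a difference of 1 or more between 2 libraries. By this rule 24 of the 30 members changed in none of the 4 comparisons. The other 6 were Atr, Rnf168, Xrcc4, Apex1, Xpa and Ercc2. Of all 12325 genes, 16.0% changed in at least 1 comparison and 84.0% in none, so by this rule the members were not steadier than genes at large. Ercc2 fell in 3 comparisons, Rnf168 and Apex1 rose in 2 each, Xrcc4 and Xpa rose in 1 each and Atr fell in 1.

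**Figure D1:**
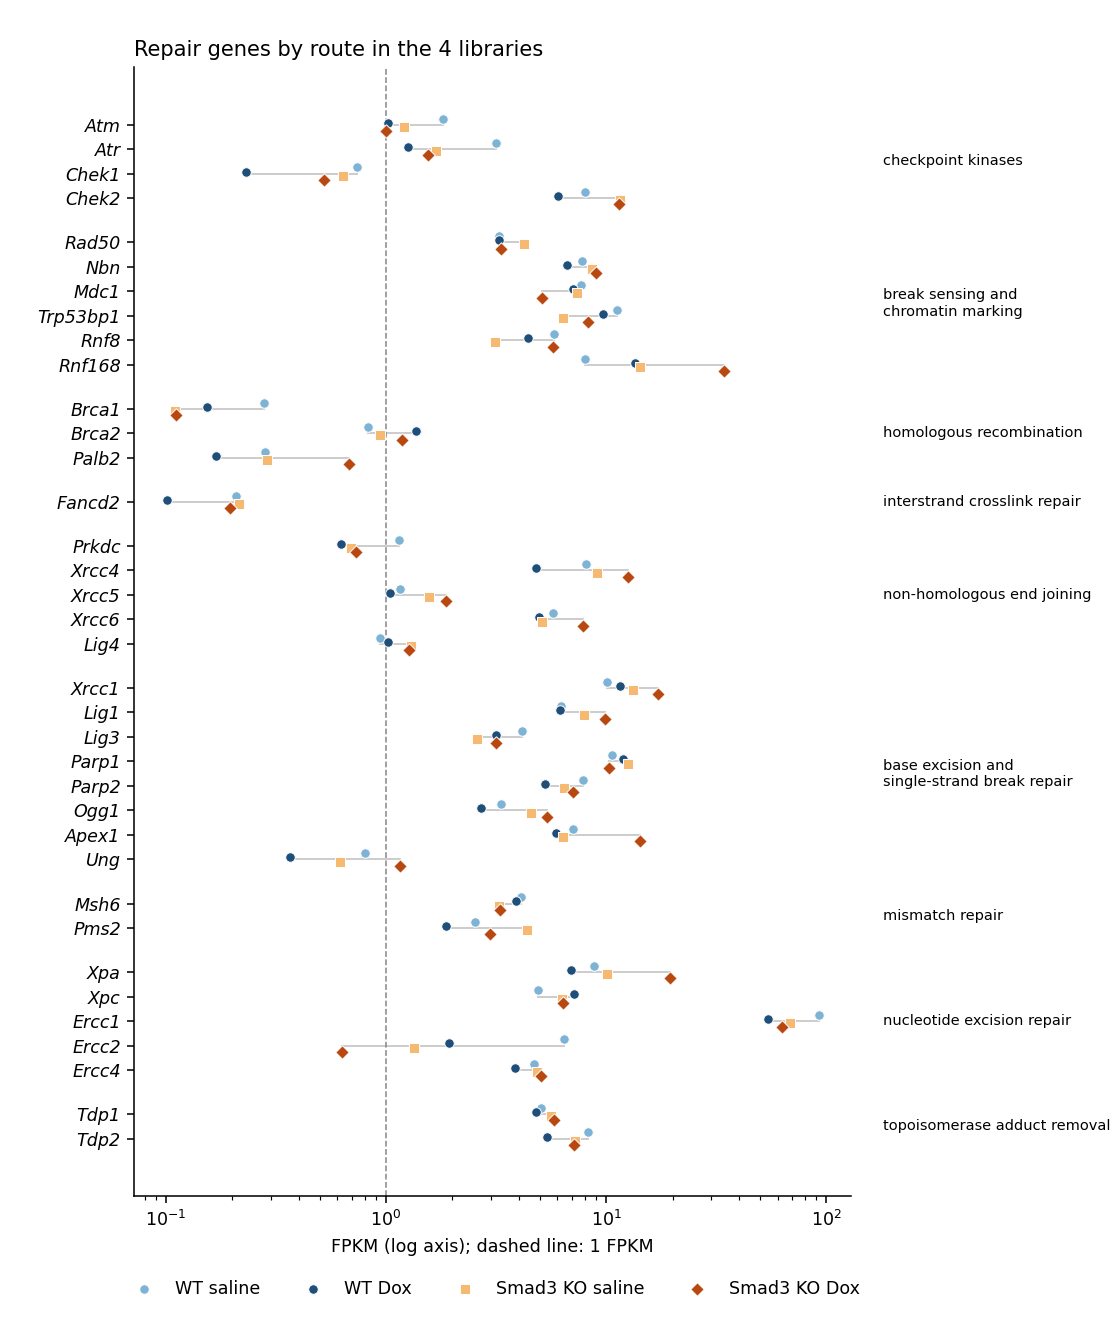
FPKM of the 36 measured members on a log axis, grouped by repair route, with 1 point per library (WT saline, WT Dox, Smad3 KO saline, Smad3 KO Dox) and a grey line from the lowest to the highest. Points of a gene are offset vertically only to keep them apart. Ercc1 is the highest member in every library, and Ercc2 has the widest spread.

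The summed level of the 36 members was 263 FPKM with saline and 205 with Dox in wild type, and 244 with saline and 288 with Dox in the knockout. Ercc1 alone held 92.2, 54.4, 68.6 and 62.6 FPKM of these sums. The median level of the 36, which include the 6 below the filter, was 4.99, 4.13, 4.71 and 5.25 FPKM in that order. Over the 12325 filtered genes of the table the median was 9.10, 8.30, 8.63 and 8.83 FPKM. In these unscaled values WT Dox was the lowest library on each measure, for all genes as for the members. The FPKM sums of the libraries differed, at 509818, 579708, 666863 and 563197 in the same order, and the measures were not repeated with equal sums. With equal sums Smad3 KO saline was the lowest library for 45.7% of all genes and WT Dox for 20.6%. WT Dox was then the lowest for 56.7% of the 30 members above the filter.

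Among the checkpoint kinases, Atr fell in wild-type endothelium after doxorubicin. Atr, the kinase of stalled replication forks and single-stranded DNA (chromosome 9, 95857597 to 95951781, plus strand, GRCm38), had 3.15 FPKM with saline and 1.26 with Dox in wild type, and 1.68 with saline and 1.55 with Dox in the knockout. WT saline stood above the other 3 libraries, which lay close together. The log2 difference was -1.05 between WT Dox and WT saline, -0.75 between Smad3 KO saline and WT saline, and -0.08 within the knockout. The fall of Atr was just past the rule, and the call was lost with a pseudocount of 1, with median-ratio scaling, or with the trend over transcript length removed (-0.82 to -1.0, the last value rounded from just short of the rule).

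Atm, the kinase that answers double-strand breaks, had 1.82 FPKM with saline and 1.02 with Dox in wild type, and 1.21 with saline and 1.0 with Dox in the knockout. WT saline was again the highest, with a difference of -0.61 between WT Dox and WT saline. Chek2, the effector kinase downstream of ATM, had 8.02, 6.06, 11.5 and 11.4 FPKM in the same order of libraries. For Chek2 the knockout libraries lay above the wild-type ones, with 0.86 between the Dox libraries, short of the rule. Chek1, the effector kinase downstream of ATR, stayed under the 1 FPKM filter at 0.736, 0.230, 0.635 and 0.522 FPKM, and WT Dox was its lowest library.

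Of the 6 genes that sense breaks and mark chromatin, Rnf168 alone changed. Rnf168, the ubiquitin ligase that modifies histone H2A beside a break so that 53BP1 can bind, had 8.02 FPKM with saline and 13.5 with Dox in wild type, and 14.3 with saline and 34.1 with Dox in the knockout. The library with both doxorubicin and the knockout was the highest, and each of the single conditions lay above WT saline. Rnf168 rose by 1.23 on the log2 scale in the doxorubicin-treated knockout against its saline control and by 1.30 against WT Dox. It differed by 0.72 in WT Dox against WT saline and by 0.79 between the saline libraries, both short of the rule. The ratio of its FPKM between the Dox libraries was 2.52, with an exact 95% interval of 2.41 to 2.73 that covers counting error only and rests on rough fragment numbers.

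Rnf8, the ligase that acts just before RNF168, had 5.76 FPKM with saline and 4.39 with Dox in wild type, and 3.11 with saline and 5.75 with Dox in the knockout. The order of its libraries was unlike that of Rnf168: WT saline and Smad3 KO Dox were almost equal and Smad3 KO saline was the lowest. The ratio of Rnf168 to Rnf8 was 1.39, 3.08, 4.6 and 5.93 in the fixed order. Of the exon bases of Rnf8, 13.2% are shared with another protein-coding gene model on the same strand, which had 2.39 to 2.67 FPKM.

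The break sensors themselves were steady. Rad50, the ATPase of the MRN complex that holds DNA ends, had 3.24, 3.27, 4.21 and 3.34 FPKM in the fixed order. Nbn, the MRN subunit that recruits ATM, had 7.73, 6.62, 8.63 and 8.99 FPKM, and its ratio to Rad50 stayed between 2.02 and 2.69. No difference of either gene reached 0.5 in size.

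Mdc1, the scaffold that reads phosphorylated H2AX, had 7.69, 7.05, 7.36 and 5.09 FPKM in the same order, with Smad3 KO Dox the lowest. Trp53bp1 encodes 53BP1, which shields ends from resection and favours end joining. It had 11.2, 9.71, 6.38 and 8.24 FPKM. Smad3 KO saline was its lowest library, -0.77 from WT saline. Tubgcp4, on the opposite strand, shares 15.0% of the exon bases of Trp53bp1 and had 7.52 to 9.09 FPKM.

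Of the 4 measured recombination and crosslink repair genes, 3 were near the limit of detection. These were Brca1, Palb2 and Fancd2, which stayed below 0.7 FPKM in every library. Brca1, which directs resected ends to recombination, had 0.279 FPKM with saline and 0.153 with Dox in wild type, and 0.11 with saline and 0.111 with Dox in the knockout. Palb2, which bridges BRCA1 and BRCA2, had 0.281, 0.169, 0.287 and 0.681 FPKM. Fancd2, the monoubiquitinated core of crosslink repair, had 0.208, 0.101, 0.215 and 0.195 FPKM. These 3 genes rested on about 14 to 51 fragments per library by the rough fragment numbers, and their differences between libraries are not read here. Brca2, which acts in recombination, was the only one of the group to pass the filter, at 0.828, 1.36, 0.941 and 1.18 FPKM, and it was 1 of the 2 members, with Xpc, whose highest library was WT Dox.

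In non-homologous end joining, which needs no sister copy and serves cells at any stage, Xrcc4 changed. Xrcc4, the scaffold of DNA ligase IV (chromosome 13, 89774027 to 90089608, minus strand), had 8.05 FPKM with saline and 4.78 with Dox in wild type, and 9.05 with saline and 12.5 with Dox in the knockout. WT Dox was the lowest library and Smad3 KO Dox the highest, and the 2 saline libraries lay between them and close to each other. Xrcc4 rose by 1.30 on the log2 scale in Smad3 KO Dox against WT Dox (FPKM ratio 2.62, 2.36 to 3.0 by counting error alone), while its treatment difference was -0.70 in wild type and 0.45 in the knockout.

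Lig4, the ligase that XRCC4 holds, did not follow it, at 0.934, 1.02, 1.30 and 1.27 FPKM in the fixed order. The ratio of Xrcc4 to Lig4 therefore ranged from 4.69 in WT Dox to 9.84 in Smad3 KO Dox. The Ku ring that first binds an end is a pair of Xrcc6 (Ku70) and Xrcc5 (Ku80). Xrcc6 had 5.71, 4.93, 5.11 and 7.80 FPKM and Xrcc5 had 1.16, 1.04, 1.56 and 1.87 FPKM. Both were lowest in WT Dox and highest in Smad3 KO Dox, with 0.61 and 0.62 between the Dox libraries, short of the rule, and Xrcc6 was 3.28 to 4.92 times Xrcc5. Desi1, on the opposite strand, shares 7.69% of the exon bases of Xrcc6. It had 11.7, 15.6, 18.1 and 18.2 FPKM, and its part in the level of Xrcc6 was not tested. Prkdc, the catalytic subunit of DNA-PK that Ku recruits, had 1.14, 0.623, 0.693 and 0.730 FPKM and did not pass the filter.

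Base excision and single-strand break repair held 8 members, of which Apex1 rose in the doxorubicin-treated knockout. Apex1, the endonuclease that cuts the backbone at a site without a base (chromosome 14, 50924968 to 50927139, plus strand), had 7.04 FPKM with saline and 5.92 with Dox in wild type, and 6.34 with saline and 14.2 with Dox in the knockout. Smad3 KO Dox was high, and the other 3 libraries lay close together. Apex1 rose by 1.11 on the log2 scale against Smad3 KO saline and by 1.20 against WT Dox, and its treatment difference in wild type was -0.23.

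The values of Apex1 carry 2 limits. Of its exon bases, 61.7% are shared with Tmem55b on the opposite strand, and whether strand was used in counting is not given in the sources used here; Tmem55b had 18.1, 16.8, 12.0 and 10.5 FPKM, lowest in Smad3 KO Dox. With the trend over transcript length removed, the differences of Apex1 were 0.81 and 0.78, so both calls were lost.

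Ogg1, the glycosylase that removes oxidised guanine, had 3.34, 2.71, 4.55 and 5.40 FPKM in the fixed order. Xrcc1, the scaffold of single-strand break repair, had 10.1, 11.6, 13.2 and 17.2 FPKM. Smad3 KO Dox was the highest library for both, with 0.88 and 0.55 between the Dox libraries, neither past the rule. Of the exon bases of Ogg1, 10.6% are shared with Camk1 on the opposite strand. Camk1 had 48.6, 53.4, 56.6 and 78.5 FPKM, also highest in Smad3 KO Dox, and its part in the level of Ogg1 was not tested. Lig3, the partner ligase of XRCC1, had 4.13, 3.15, 2.59 and 3.16 FPKM, so that the ratio of Xrcc1 to Lig3 ranged from 2.45 in WT saline to 5.44 in Smad3 KO Dox. Rffl, on the opposite strand, shares 25.1% of the exon bases of Lig3 and had 7.01, 5.82, 5.5 and 4.52 FPKM.

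Lig1, the ligase of replication and long-patch repair, had 6.22, 6.16, 7.96 and 9.91 FPKM in the same order, with 0.64 between the Dox libraries. Parp1, the main sensor of single-strand breaks, was the steadiest member at 10.6, 11.9, 12.6 and 10.3 FPKM, a span of 1.21 times from lowest to highest. Parp2, its smaller relative, had 7.85, 5.26, 6.43 and 7.07 FPKM and was lowest in WT Dox. Ung, which removes uracil, had 0.804, 0.364, 0.618 and 1.16 FPKM and did not pass the filter.

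Nucleotide excision repair held the widest spread of all members, in Ercc2. Ercc2 encodes XPD, the helicase of TFIIH that opens the helix around a bulky lesion and that also takes part in starting transcription (chromosome 7, 19382010 to 19395694, plus strand). It had 6.45 FPKM with saline and 1.94 with Dox in wild type, and 1.34 with saline and 0.631 with Dox in the knockout. WT saline stood far above the other 3 libraries, and the highest library was 10.2 times the lowest.

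Ercc2 fell by 1.51 on the log2 scale in WT Dox against WT saline, by 1.91 between the saline libraries and by 1.11 in Smad3 KO Dox against WT Dox. The corresponding FPKM ratios were 0.301 (0.249 to 0.352), 0.208 (0.162 to 0.247) and 0.325 (0.230 to 0.458), with intervals for counting error only. Both of its largest differences share the WT saline library. The difference within the knockout was -0.70. It was -1.09 where 0.5 was not added to the values and only the lowest listed values, none of them of Ercc2, were replaced by 0.5. The fall between the Dox libraries was -0.85 with a pseudocount of 1, where the call was lost. The genes that share exon bases with Ercc2 on the other strand, Klc3 and Gm26852, had at most 0.697 FPKM.

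Xpa, which verifies the lesion and places the cutting enzymes (chromosome 4, 46155347 to 46196311, minus strand), had 8.81 FPKM with saline and 6.95 with Dox in wild type, and 10.1 with saline and 19.4 with Dox in the knockout. Smad3 KO Dox was high and the other 3 libraries lay close together. Xpa rose by 1.42 on the log2 scale in Smad3 KO Dox against WT Dox, the largest rise of any member in any comparison, and its FPKM ratio was 2.79 (2.33 to 3.33, counting error only). With the trend over transcript length removed this rise was 1.0 after rounding, just past the rule. The difference was 0.91 within the knockout and -0.32 within wild type. Ncbp1, on the opposite strand, shares 4.07% of the exon bases of Xpa. It had 11.0, 10.4, 11.5 and 14.7 FPKM in the fixed order, and its part in the level of Xpa was not tested.

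The other genes of the route moved in neither direction past the rule. Xpc, the sensor of helix distortion, had 4.91, 7.17, 6.29 and 6.38 FPKM in the fixed order. Ercc1 and Ercc4 encode ERCC1 and XPF, partners in 1 nuclease. Ercc1 had 92.2, 54.4, 68.6 and 62.6 FPKM, the highest level of any member in every library, and a difference of -0.76 between WT Dox and WT saline. Ercc4 had 4.70, 3.85, 4.87 and 5.05 FPKM, so Ercc1 was 12.4 to 19.6 times its partner.

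Mismatch repair and the removal of trapped topoisomerase showed no change past the rule. Msh6, which recognises mismatched bases, had 4.12, 3.88, 3.24 and 3.29 FPKM in the fixed order. Pms2, the endonuclease that follows, had 2.53, 1.88, 4.38 and 2.95 FPKM, with a difference of 0.69 between the saline libraries and -0.50 within the knockout. The gene models that share exon bases with Pms2 on the same strand had at most 0.952 FPKM.

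Tdp2, which frees the DNA ends that topoisomerase II leaves blocked, is the member closest to the lesion of doxorubicin. It had 8.27 FPKM with saline and 5.39 with Dox in wild type, and 7.19 with saline and 7.17 with Dox in the knockout. Only WT Dox was low, at -0.58 from WT saline, short of the rule. Tdp1, the counterpart for topoisomerase I, had 5.07, 4.77, 5.60 and 5.8 FPKM, a span of 1.22 times.

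**Figure D2:**
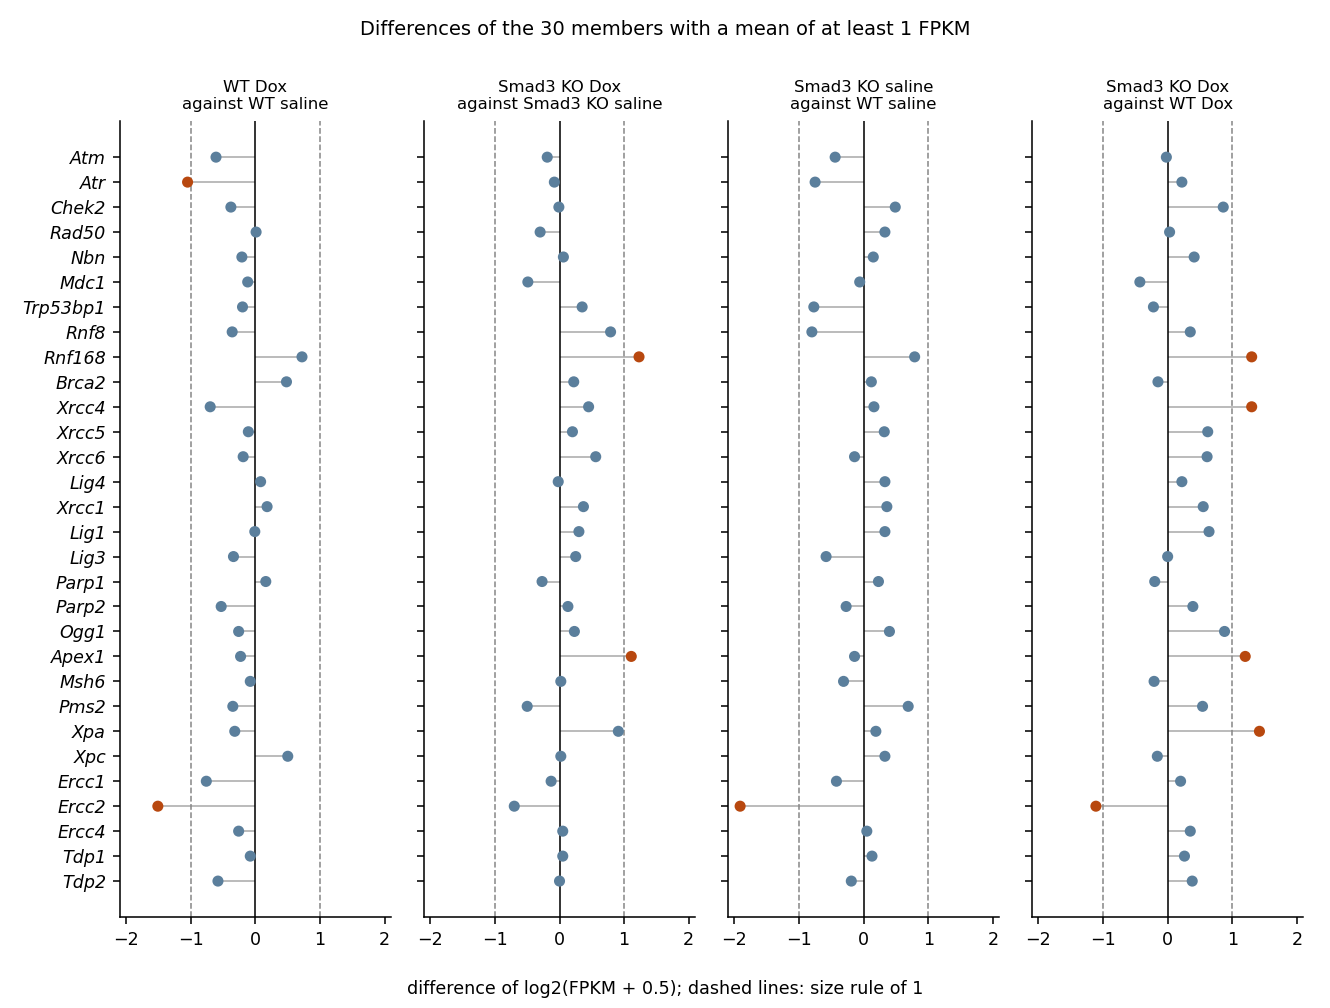
Differences of log2(FPKM + 0.5) for the 30 members whose mean reached 1 FPKM in the 4 comparisons, with 1 point per gene and the size rule of 1 as dashed lines; orange points are past it. The points past the rule number 2, 2, 1 and 5 from left to right.

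The first comparison asked how repair genes of wild-type endothelium stood 9 wk after doxorubicin. Of the 30 members, 2 fell (Atr and Ercc2) and none rose, which is 6.67% of members against 3.72% of all genes (1.03% rose and 2.69% fell). With so few calls this share is close to the background. The members lay mostly on the lower side: 23 of 30 (76.7%) were below 0, against 56.9% of all genes, and their median was -0.22 against -0.06 for all. The all-gene counts were 127 higher and 332 lower, and 111 and 630 with each library scaled to the same FPKM sum (TPM).

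Within the Smad3 knockout the calls were in the other direction. Rnf168 and Apex1 rose and none fell, 6.67% of members against 6.86% of all genes (4.02% rose and 2.84% fell). The median member difference was 0.05, equal to that of all genes at 2 decimals, and 19 of 30 members (63.3%) were above 0, against 54.8% of all genes. Ercc2 also fell (-1.09) where 0.5 was not added and only the lowest values were replaced by 0.5. None falling therefore did not hold under that setting. The all-gene counts were 495 higher and 350 lower, against 1009 and 247 with TPM and 402 and 445 with median-ratio scaling, and TPM brought Xpa (1.16) and Rnf8 (1.06) past the rule.

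Between the saline libraries, which show the genotypes without drug, Ercc2 fell and no member rose. This is 3.33% of members against 4.72% of all genes (1.7% rose and 3.03% fell). The median member difference was 0.12 against -0.01 for all genes (-0.23 against -0.38 with TPM), and 17 of 30 members (56.7%) lay above 0, against 48.3% of all genes. The all-gene counts were 209 higher and 373 lower, against 130 and 1276 with TPM, where Atr (-1.15), Rnf8 (-1.19) and Trp53bp1 (-1.16) also passed the rule.

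Between the doxorubicin-treated libraries, 4 members rose in the knockout (Rnf168, Xrcc4, Apex1 and Xpa) and 1 fell (Ercc2). This is 16.7% of members against 9.92% of all genes (6.17% rose and 3.75% fell), and 17.2% of 29 members against 11.4% of the 8846 genes with a mean of 1 to 20 FPKM. The median was 0.35 for members and 0.12 for all genes, and 22 of 30 members (73.3%) were above 0 against 57.8% of all genes. By route, the medians were 0.62 for the 4 filtered end joining genes, 0.55 for the 7 of base excision repair, 0.32 for the 2 of topoisomerase adduct removal, 0.22 for the 3 checkpoint kinases, 0.20 for the 5 of nucleotide excision repair, 0.19 for the 6 of break sensing and 0.16 for the 2 of mismatch repair. Brca2, the only filtered recombination gene, had -0.15. The all-gene counts were 761 higher and 462 lower, against 527 and 675 with median-ratio scaling, whereas the members stayed at 4 and 1. This comparison shares a library with each of the others. Summed erythroid markers were 28500 against 4380 FPKM and summed macrophage markers 187 against 531 FPKM in these 2 libraries, and their part in the member differences was not tested.

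WT Dox was the lowest of the 4 libraries for 16 of the 30 members (53.3%), against 24.2% of all genes. These 16 came from 7 routes and were Atr, Chek2, Nbn, Xrcc4, Xrcc5, Xrcc6, Lig1, Parp2, Ogg1, Apex1, Pms2, Xpa, Ercc1, Ercc4, Tdp1 and Tdp2. Most of them differed by less than the rule. The share was 56.7% with TPM (20.6% of all genes), 50% with median-ratio scaling (16.7%) and 46.7% with upper-quartile scaling (18.0%). It was 50% of the 14 members that share no exon bases with another gene. Among the 3 libraries other than Smad3 KO Dox, WT Dox was the lowest for 18 members (60.0%), against 34.7% of all genes. Mitochondrially encoded genes took 10.5, 16.8, 20.1 and 8.95% of all FPKM in the fixed order, and their part in this pattern was not tested. These alternatives were chosen after the values were seen, and with 1 library per group the share cannot be told apart from a property of that library.

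**Figure D3:**
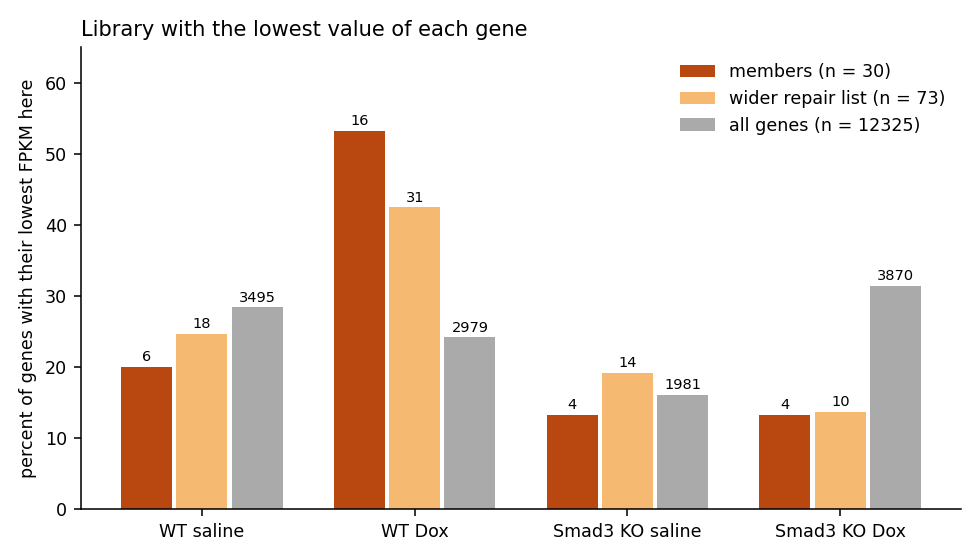
Percent of genes whose lowest FPKM was in each library, for the 30 members, 73 genes of a wider repair list and all 12325 genes, with the number of genes above each bar. WT Dox holds the lowest value of 16 members, 31 genes of the wider list and 2979 genes in all.

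The treatment difference had opposite signs in the 2 genotypes for many members, but some of these signs rest on values near 0. The same sign was found in 12 of 30 (40.0%), against 58.0% of all genes, and 18 members had opposite signs. Among the 18, Msh6 had 0.02 and Ercc4 and Tdp1 had 0.05 within the knockout. Rad50 had 0.01 and Lig1 -0.01 within wild type. Median-ratio scaling moved the member median within the knockout from 0.05 to -0.04, and counts of signs under other scalings are not reported here. The difference in the knockout minus that in wild type was at least 1 in size for 4 members, which is 13.3% against 10.5% of all genes: Rnf8 (1.15), Xrcc4 (1.14), Apex1 (1.34) and Xpa (1.23). With so few members this share lies near the background. All 4 were below 0 in wild type and above 0 in the knockout. The knockout minus wild-type value was above 0 for 76.7% of the members and 59.4% of all genes. Across the 30 members Pearson's r of the 2 treatment differences was 0.37, and across all 12325 genes it was 0.18. Genes are not independent replicates, and the points share 4 libraries, so these values are a description.

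**Figure D4:**
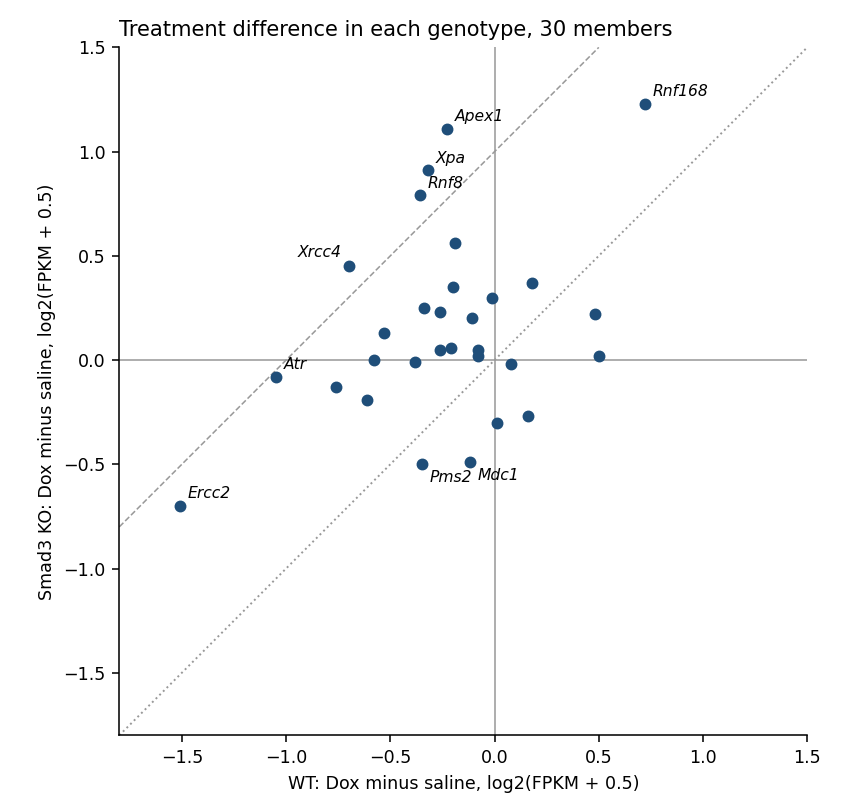
Dox minus saline on the log2(FPKM + 0.5) scale in wild type (x) and in the Smad3 knockout (y), 1 point per member. Points on the dotted line have equal differences and points above the dashed line differ by more than 1. Rnf8, Xrcc4, Apex1 and Xpa lie above it.

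Transcript length moved with the difference between the Dox libraries, in all genes and in the members. In all genes, the median difference between the Dox libraries was 0.37 for longest transcripts under 2000 bases, 0.14 for 2000 to under 5000 bases and -0.31 for 5000 bases or more. The members had medians of 0.88 (5 genes, Apex1 and Xpa among them), 0.48 (14 genes) and 0.03 (11 genes) in those classes. Within each class the member median lay above that of all genes. With the trend over length removed, Rnf168 and Xrcc4 still rose, Xpa stood at the rule (1.0 after rounding, just past it) and Apex1 did not pass it, and the median of the 30 members was 0.35 against 0.00 for all genes.

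**Figure D5:**
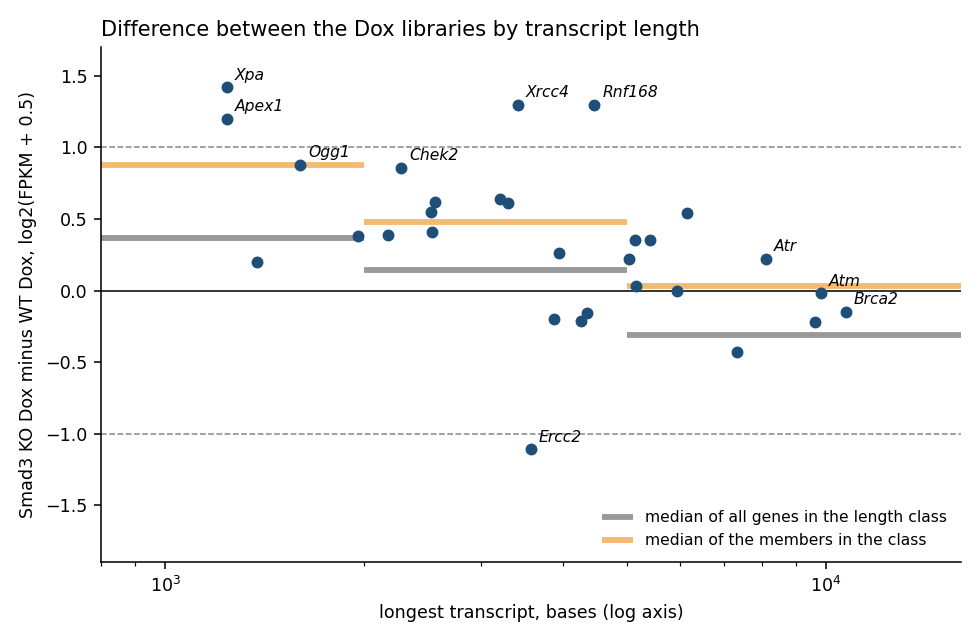
Smad3 KO Dox minus WT Dox on the log2(FPKM + 0.5) scale against the longest annotated transcript of each of the 30 members (log axis), with the medians of all genes and of the members in 3 length classes. The all-gene medians are 0.37, 0.14 and -0.31 from short to long.

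The starts of the members shared features that the choice by name did not use. A protein-coding gene on the opposite strand began within 1000 bases of the start of 15 of the 36 members (41.7%), against 10.9% of all 21951 protein-coding genes. Above the 1 FPKM filter the shares were 36.7% of members and 16.1% of protein-coding genes. Some neighbours differed as the member did and some did not. Osgep, which starts 75 bases from Apex1, had 22.6, 25.4, 27.6 and 30.1 FPKM and differed by 0.24 between the Dox libraries, against 1.20 for Apex1. Tmem167, whose start overlaps that of Xrcc4, differed by -0.09 against 1.30. Hscb, 202 bases from Chek2, rose by 1.32 between the Dox libraries, where Chek2 differed by 0.86. Aimp2, 117 bases from Pms2, differed by 0.79 against 0.54 for Pms2. These neighbours were named after their values were seen.

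Promoter windows of RefSeq (GRCm38.p6, from 250 bases before to 50 after a start) were matched by symbol for 30 of the 36 members, and those for Fancd2, Tdp2, Rad50, Nbn, Prkdc and Xpc were not used here. The windows of members past the size rule are shown because they belong to the genes that moved, trimmed to bases outside annotated exons, from 5′ to 3′ on the gene's strand. Capitals mark the word CACGTG, an E-box, which was found only in that of Apex1. That window spans the whole gap between Apex1 and Osgep. No exon-free bases remained for Atr. The bases shown for Xrcc4 do not reach its start at 90089608, since those nearer to it lie in annotated exons and were trimmed.
Rnf168, chr16:32277211-32277458, plus strand: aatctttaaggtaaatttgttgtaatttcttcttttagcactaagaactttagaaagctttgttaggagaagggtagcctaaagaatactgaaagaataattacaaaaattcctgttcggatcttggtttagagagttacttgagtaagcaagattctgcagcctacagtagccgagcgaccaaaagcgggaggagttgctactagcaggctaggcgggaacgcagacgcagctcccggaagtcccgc
Xpa, chr4:46196312-46196561, minus strand: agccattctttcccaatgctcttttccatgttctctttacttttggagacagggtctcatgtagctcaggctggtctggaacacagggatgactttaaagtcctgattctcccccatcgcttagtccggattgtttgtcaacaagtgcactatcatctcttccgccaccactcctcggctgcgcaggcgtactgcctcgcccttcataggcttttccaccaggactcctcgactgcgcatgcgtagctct
Ercc2, chr7:19381767-19382009, plus strand: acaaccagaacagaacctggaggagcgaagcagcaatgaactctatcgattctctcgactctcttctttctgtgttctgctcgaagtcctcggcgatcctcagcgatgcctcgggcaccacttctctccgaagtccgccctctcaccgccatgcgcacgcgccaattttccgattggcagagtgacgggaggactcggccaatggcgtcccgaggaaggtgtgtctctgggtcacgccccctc
Xrcc4, chr13:90089784-90089858, minus strand: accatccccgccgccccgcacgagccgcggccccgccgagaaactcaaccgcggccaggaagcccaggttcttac
Apex1, chr14:50924894-50924967, plus strand: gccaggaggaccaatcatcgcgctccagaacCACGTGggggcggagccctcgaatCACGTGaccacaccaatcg

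Words bound by E2F, the factors that time S-phase genes, were more frequent in the members' windows than in promoters at large. The words TTTCCCGC, TTTGGCGC, TTTCGCGC and TTTCCCGG were searched on both strands, and at least 1 of them was found in 6 of 33 windows of members (18.2%), against 3.07% of the 32851 promoters of all genes, expressed or not. The 6 windows belonged to Brca2, Chek2, Lig1, Mdc1, Msh6 and Xrcc6. The exon-free parts that hold the word TTTCCCGC, or GCGGGAAA on the other strand, are shown with it in capitals.
Brca2, chr5:150522371-150522629, plus strand: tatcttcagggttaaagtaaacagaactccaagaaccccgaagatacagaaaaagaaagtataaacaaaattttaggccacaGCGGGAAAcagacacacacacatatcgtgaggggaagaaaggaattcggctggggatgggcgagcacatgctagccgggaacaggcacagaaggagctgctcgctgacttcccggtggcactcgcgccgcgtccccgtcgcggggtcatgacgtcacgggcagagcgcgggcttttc
Chek2, chr5:110839778-110839978, plus strand: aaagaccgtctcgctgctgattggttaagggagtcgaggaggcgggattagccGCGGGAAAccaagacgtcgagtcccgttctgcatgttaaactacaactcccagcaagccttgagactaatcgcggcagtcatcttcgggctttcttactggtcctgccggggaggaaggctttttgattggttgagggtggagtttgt
Mdc1, chr17:35841248-35841514, plus strand: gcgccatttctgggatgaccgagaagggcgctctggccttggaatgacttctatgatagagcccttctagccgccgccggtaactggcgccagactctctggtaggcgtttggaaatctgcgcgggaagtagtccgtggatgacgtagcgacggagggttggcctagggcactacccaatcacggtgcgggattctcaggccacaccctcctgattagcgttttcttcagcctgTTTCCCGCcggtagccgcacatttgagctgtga

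Of the 6 members with an E2F word, 0 rose or fell in any comparison, where 16.0% of all genes did, so that this count lies near the background. Their differences between WT Dox and WT saline ran from -0.38 (Chek2) to 0.48 (Brca2). Among 20 proliferation genes, 15 passed the filter, of which 2 fell and 0 rose in that comparison. Of all genes, 2.69% fell and 1.03% rose there. The median of the 15 was -0.39, against -0.06 for all genes. The summed level of the 20 was 160, 109, 128 and 146 FPKM in the fixed order. The Smad words GTCTAGAC and CAGAC and the E-box were searched after the values were seen. GTCTAGAC was in no window of a member and in 0.213% of promoters, CAGAC in 54.5% of the members' windows and 49.6% of promoters, and CACGTG in 18.2% and 7.15%. Such matches describe the letters and show no binding.

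A wider list of other repair genes gave 73 above the filter, of 95 measured. In WT Dox against WT saline 2 of the 73 fell and 0 rose, where 3.72% of all genes changed. Rif1, the 53BP1 effector, had 5.26 FPKM in WT saline and 2.35 in WT Dox, and Dclre1c (Artemis, the nuclease of end joining) had 2.54 and 0.989. The median was -0.13 for the list and -0.06 for all genes. In Smad3 KO Dox against Smad3 KO saline 2 rose and 1 fell, where 6.86% of all genes changed. The median of the list was 0.23 against 0.05 for all genes, and 53 of the 73 lay above 0, against 54.8% of all genes. Neil1, a glycosylase for oxidised bases, went from 1.16 to 3.49 FPKM and Alkbh2, which reverses alkylation, from 2.22 to 5.76, while Parg, which degrades the polymer that PARP1 makes, went from 6.65 to 2.36.

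Between the saline libraries 1 gene of the wider list rose (Nthl1, 1.01) and 3 fell (Alkbh2 at -1.22, Dclre1c at -1.16 and Polm at -1.11). Of all genes, 4.72% changed there. Between the Dox libraries 7 of the 73 rose and 1 fell, where 9.92% of all genes changed, so that this count lies near the background. The 4 with the largest differences were Mutyh (1.40), Parg (-1.34), Neil1 (1.33) and Alkbh3 (1.26). The median of the wider list was 0.26 in that comparison, beside 0.35 for the members and 0.12 for all genes. WT Dox was the lowest library for 31 of the 73 (42.5%), against 24.2% of all genes. With TPM it was the lowest for 35.6% of the list (20.6% of all genes). Smad3 KO saline was then the lowest for 46.6% of the list, close to its share of all genes (45.7%). With median-ratio scaling WT Dox was the lowest for 32.9% (16.7%).

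The output of p53, the transcription factor that ATM and CHK2 activate, was read from 14 of its target genes. Of these, 0 rose and 0 fell in either comparison of Dox with saline or between the Dox libraries, and 1 fell between the saline libraries. With 3.72% to 9.92% of all genes past the rule, these counts lie near the background, and single targets ran from -1.06 to 0.84. Their median difference between WT Dox and WT saline was -0.17, against -0.06 for all genes and -0.22 for the repair members.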

How the data were processed

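The authors deposited 1 table of FPKM per gene and library, the measurement used here. CASAVA, STAR and GRCm38.p4 are listed in the submitters' processing notes, while the study's methods describe TopHat, Bowtie and Cufflinks on a human build, which leaves the aligner uncertain. For strand use and annotation release, the sources used here give nothing. Lines of 51 repeated IDs were summed, and 1 value below the floor of 0.05 FPKM was set to it. Differences of log2(FPKM + 0.5) were taken between single libraries for the 12325 genes whose mean reached 1 FPKM, with a size rule of 1 and no test.

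The members, lists and words were chosen with earlier results of these data known. All members are named. Of the wider repair list, up to 4 genes with the largest differences past the rule were named per comparison, and of other lists only counts and medians, with Smad3, Pecam1 and Cdh5 as values. Depth and rough fragment numbers came from the spacing of low values, of which 80.5% to 83.5% fell within 0.1 fragments of a whole number. Gene positions, lengths and shared exons are from GENCODE M21 (GRCm38) and promoters from RefSeq (GRCm38.p6). The alternatives, tried singly, were pseudocounts of 0.1 and 1, and no pseudocount with only the lowest values replaced by 0.5. Others were no filter or a mean of at least 5 FPKM, a sum of 1000000 per library (TPM), and median-ratio or upper-quartile scaling. The rest were a running median of 501 genes over transcript length removed, size rules of 1.5 times or of 2, and Smad3 grouped by tag. The code was tested on simulated data and ran in Python 3.11.15 with pandas 2.3.3, numpy 2.4.6, scipy 1.17.1 and matplotlib 3.10.9.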

Additional observations from a re-analysis of the deposited data

Results flagged for a closer look

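Of the 36 measured members, 5 had treatment differences of opposite sign in the 2 genotypes that lay at least 1 apart on the log2(FPKM + 0.5) scale. The value in the Smad3 knockout minus that in wild type was 1.34 for Apex1, 1.23 for Xpa, 1.17 for Ung, 1.15 for Rnf8 and 1.14 for Xrcc4. Ung had a mean below 1 FPKM. With 1 library per group these differences were not tested. Among all 12325 filtered genes 7.70% met the same description, as did 4 of the 30 filtered members.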

How the results depend on the processing

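Members past the size rule numbered 2 in WT Dox against WT saline, 2 in Smad3 KO Dox against Smad3 KO saline, 1 between the saline libraries and 5 between the Dox libraries. In the first, 1 remained with a pseudocount of 1, median-ratio scaling or the length trend removed, and 0 with a mean of at least 5 FPKM. In the second, TPM gave 4 and the length trend removed gave 1. Without the added 0.5, and with only the lowest values replaced by 0.5, the count was 3, since Ercc2 fell there (-1.09). In the third, a mean of at least 5 FPKM gave 0 and TPM gave 4. A size rule of 1.5 times gave 6, 5, 6 and 10, and a rule of 2 gave 0 in each. The cause was not tested beyond what each setting leaves out. TPM moved the all-gene medians to -0.24, 0.29, -0.38 and 0.16, with the member medians -0.17, -0.00, 0.16 and 0.25 from them, and by default -0.16, -0.00, 0.14 and 0.24. Rnf168, Xrcc4 and Xpa stayed past the rule between the Dox libraries under every alternative but the rule of 2, with Xpa down to 1.0. Smad3 differed by -1.06 between genotypes, and by -0.29 grouped by tag. No paired analysis was possible because each group had 1 library.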
